A study of Triticum urartu with 18 samples.

Results

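Endosperm of the wild diploid wheat Triticum urartu, the source of the A genome in bread wheat, was compared between 20 and 15 days post anthesis (DPA), the late interval of grain filling. The comparison was chosen by stage and rests on 6 of the 18 RNA-Seq libraries of the series, 3 at each stage. Both groups were the wild-type accession PI 428198, grown in the field in 3 replications without treatment. Embryo, aleurone, seed coat and pericarp had been taken off before the RNA was extracted, and the labels describe the 3 libraries of each stage as independent biological replicates.

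Filling endosperm makes starch and storage protein at the same time. Sucrose arriving from the mother plant is cleaved to UDP-glucose and fructose, ADP-glucose pyrophosphorylase supplies ADP-glucose, starch synthases extend the glucan chains, and branching and debranching enzymes shape amylopectin. The storage proteins of wheat are prolamins, the gliadins and glutenins, which are folded in the endoplasmic reticulum and later form gluten. Their genes are transcribed in the starchy endosperm under regulators of the Dof, bZIP, MYB, B3 and NAC families.

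The values are FPKM, that is fragments per kilobase of transcript in proportion to all mapped fragments, for 27121 genes. The table annotates 21 storage prolamin genes, 28 starch synthesis genes, 12 individually named genes and 1099 members of 52 transcription factor families. The other 25961 genes carry an identifier only. From the FPKM steps of weakly detected genes, the mapped fragments of the 6 libraries were estimated at 0.806 to 1 of those of 15 DPA library 1. The search covered only ratios near 1, so a large difference in depth could not have appeared. At 20 DPA the estimate rested on 133 to 191 genes. Whether the stages differ in depth is therefore not settled. Total FPKM was 1931439 to 2058668 at 15 DPA and 3556315 to 3596339 at 20 DPA.

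A small set of unannotated genes filled the 20 DPA libraries. The 18 genes with a mean share of at least 1% of total FPKM at 20 DPA held 55.4%, 57.0% and 58.3% of the total in the 15 DPA libraries and 94.2%, 93.8% and 94.3% at 20 DPA. Since their 20 DPA values chose them, these shares are a description. The lowest of the 18 had a mean share of 1.04% and the next gene below the limit 0.352%. TRIUR3_32831 held 11.6%, 11.5% and 9.87% at 15 DPA and 15.1%, 15.5% and 17.0% at 20 DPA, and its groups did not overlap. TRIUR3_00135 held 13.0%, 12.8% and 10.5% at 15 DPA and 11.2%, 10.1% and 12.0% at 20 DPA, and its groups overlapped. TRIUR3_00136 and TRIUR3_00018 carried identical values in every library, so reads shared between copies cannot be told apart there. The same 18 genes held 95.0% in 25 DPA library 1, against 48.6% and 49.5% in the other two libraries of that stage. In the flag leaf libraries of the series they held 73.7%, 47.4% and 44.6%. What these transcripts are is not given in the sources used here, and whether their share arose in the tissue or in preparing the libraries was not tested.

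**Figure D1:**
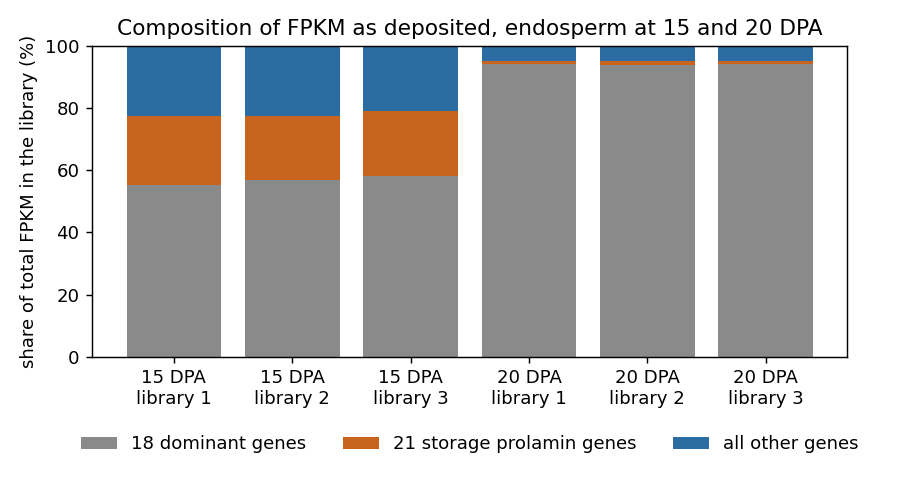
Stacked bars give the share of total FPKM (%) held by the 18 dominant genes, the 21 storage prolamin genes and all other genes in each of the 6 libraries. The dominant genes take 55.4% to 58.3% at 15 DPA and 93.8% to 94.3% at 20 DPA, and the prolamin genes 20.4% to 22.1% and 0.892% to 1.28%.

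Because the 18 genes held most FPKM at 20 DPA, FPKM was rescaled before any gene was called. Each library was divided by the median ratio of its values to the geometric mean of the 6 libraries, over the 5629 genes above 0 in all of them. The divisors were 2.51, 2.98 and 2.55 at 15 DPA and 0.298, 0.461 and 0.383 at 20 DPA. Divisors from FPKM outside the 18 genes lay closer together, at 1.991 to 2.031 and 0.4815 to 0.5203. The median ratios thus remove more than the share of the 18 genes. Scaled FPKM below rests on the median ratios and measures a gene against the typical gene of the same library. A fall common to most genes would not appear on this scale. A gene was called when limma's moderated test on log2(scaled FPKM + 1), with Benjamini-Hochberg adjustment over all tested genes, gave an adjusted p under 0.05 and a log2 change of at least 1 in size. The 10503 genes with at least 1 FPKM in 3 or more of the 6 libraries were tested.

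Fewer weak transcripts were seen at 20 DPA. Between 15305 and 16131 genes were above 0 in the 15 DPA libraries and between 9328 and 11010 at 20 DPA. Genes above 0 in all 3 libraries numbered 12905 at 15 DPA and 5852 at 20 DPA. The 5th percentile of the values above 0, on the scaled scale, was 0.111 to 0.137 at 15 DPA and 0.478 to 0.638 at 20 DPA, so a gene listed at 0 at 20 DPA may lie anywhere under a higher detection limit. Replicates also resembled each other less at 20 DPA. Over the 5629 genes, Spearman's rho between pairs of libraries was 0.948 to 0.961 within 15 DPA and 0.769 to 0.794 within 20 DPA, as a description across genes of libraries that share the stage. Over the 325 genes with at least 10 FPKM in all 6 libraries it was 0.974 to 0.992 and 0.928 to 0.953.

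The balance of rises and falls on the scaled values depended on which genes entered the test. Of the 10503 tested genes, 428 were called higher at 20 DPA, which is 4.08%, and 1164 lower, which is 11.1%. The filter used FPKM as deposited, and 7541 of the tested genes reached 1 FPKM in all 3 libraries at 15 DPA but in fewer than 3 at 20 DPA. That set held 925 of the 1164 lower genes. Another 138 genes reached 1 FPKM in all 3 libraries at 20 DPA only, with 128 higher and 0 lower ones. The 2300 genes at 1 FPKM or more in all 6 libraries held 266 higher and 239 lower ones. The median log2 change over all tested genes was -0.31. On FPKM as deposited the median was -1.96, 145 genes (1.38%) were called higher and 9089 (86.5%) lower. With libraries scaled to their FPKM outside the 18 genes, 298 were called higher and 3023 lower, with a median of -0.79. With libraries scaled to total FPKM, 101 were higher and 9724 lower. All 1164 genes lower on the scaled values were also lower as deposited, and all 145 genes higher as deposited were among the 428. With the same genes tested, leaving out 15 DPA library 1, 2 or 3 gave 290, 277 and 319 higher and 748, 751 and 765 lower genes, and leaving out 20 DPA library 2 gave 476 and 1837. With the filter reapplied to the 5 remaining libraries, rises outnumbered falls without 15 DPA library 1, 2 or 3, at 274, 264 and 303 higher and 204, 214 and 243 lower genes.

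**Figure D2:**
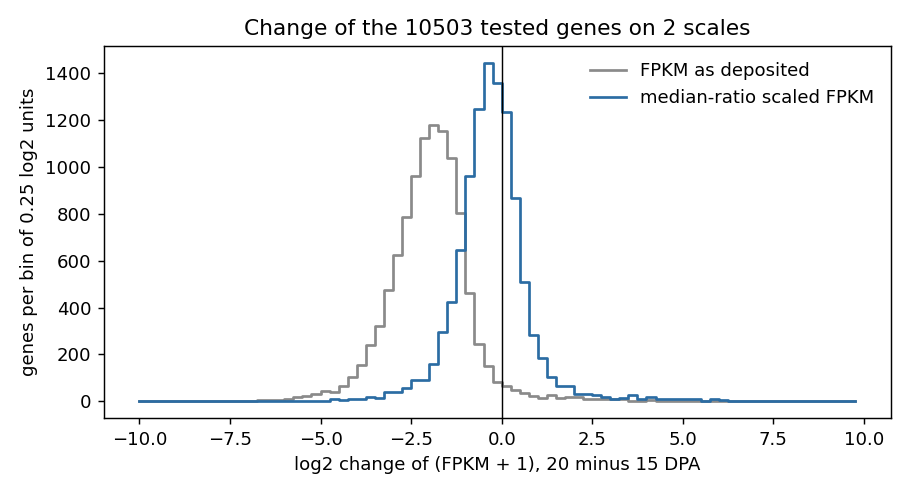
The lines count genes in bins of 0.25 log2 units by their log2 change, 20 minus 15 DPA, for FPKM as deposited (grey) and median-ratio scaled FPKM (blue), over the 10503 tested genes. The grey distribution has its median at -1.96 and the blue one at -0.31.

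As a group, the storage prolamin genes remained the most abundant annotated genes, and part of them fell against the typical gene. Of 21 genes, 9 were called lower and 0 higher at 20 DPA, where 11.1% of all tested genes were lower. Their median log2 change was -0.92, with a range of -1.57 to -0.29, beside -0.31 over all genes. For a fall, 17 had an unadjusted limma p under 0.05, beside 2479 of the 10503 tested genes. For a rise 0 did, beside 770. The groups did not overlap for 18 of the 21, all lower at 20 DPA, beside 27.1% of all tested genes. As deposited, and scaled to FPKM outside the dominant genes, all 21 were called lower. Of the 10503 tested genes, 9089 and 3023 were then lower. In a fit of all 15 endosperm libraries 0 were called. Summed over the 21 genes, scaled FPKM was 169800, 134800 and 168400 at 15 DPA and 109300, 98690 and 83680 at 20 DPA, a sum 1.62 times as high at 15 DPA, and the groups did not overlap. In whole endosperm RNA, fewer cells of a type and less RNA of a gene per cell cannot be told apart.

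The alpha gliadins, the monomeric gliadins that carry several coeliac epitopes, included 7 of the 9 falling genes among their 12 members. Gli-α-5 measured 3175, 3195 and 2763 scaled FPKM at 15 DPA and 1282, 1150 and 1038 at 20 DPA, and every 20 DPA library lay below every 15 DPA library. Its log2 change was -1.40 (limma, SE 0.15, adjusted p = 0.00171). Gli-α-9, the weakest of the family, went from 157, 120 and 180 to 55.7, 45.4 and 49.6, a log2 change of -1.57 (limma, SE 0.19, adjusted p = 0.00265). Gli-α-2, Gli-α-3, Gli-α-4, Gli-α-12 and Gli-α-13 fell by 1.03 to 1.27 on the log2 scale. The calls of Gli-α-3, Gli-α-4 and Gli-α-12 ended without 20 DPA library 3, at log2 changes of -0.94, -0.99 and -0.97, and that of Gli-α-3 also without 15 DPA library 3, at -0.98, because the change then missed the size limit. The most abundant alpha gliadin, Gli-α-8, measured 14890, 12380 and 14010 and then 8204, 7532 and 6138. Its log2 change of -0.92 (limma adjusted p = 0.0154) was under the size limit, so it was not called, although its groups did not overlap. Gli-α-6, Gli-α-7, Gli-α-10 and Gli-α-11 likewise had lower values without overlap and log2 changes of -0.99 to -0.82, under the size limit.

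Among the gamma gliadins, which form disulphide bonds within the chain, 1 of 3 was called. Gli-γ-3 measured 9611, 7759 and 9159 at 15 DPA and 4184, 3878 and 3350 at 20 DPA, a log2 change of -1.22 (limma, SE 0.17, adjusted p = 0.00431). Gli-γ-1 had the highest mean of all 21 prolamin genes at both stages, with 35960, 28430 and 39100 and then 26250, 25150 and 20950 scaled FPKM. Its log2 change was -0.51 (limma adjusted p = 0.19), and it was not called, nor was Gli-γ-2 at -0.44. The omega gliadin Gli-ω-1, of a group poor in cysteine, had a log2 change of -0.53 (limma adjusted p = 0.0746) and was not called either.

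Of the 5 glutenin genes, whose proteins polymerise through disulphide bonds between chains, 1 was called lower. Of the high molecular weight pair, TuGlu-1Ay measured 4291, 3333 and 3059 at 15 DPA and 1657, 1149 and 1243 at 20 DPA, and fell with a log2 change of -1.40 (limma, SE 0.21, adjusted p = 0.00491). Its partner TuGlu-1Ax measured 7515, 6110 and 7205 and then 4653, 3343 and 3748, without overlap, but its limma adjusted p of 0.0216 came with a change under the size limit. The ratio of TuGlu-1Ax to TuGlu-1Ay, which no scaling alters, was 1.75, 1.83 and 2.36 at 15 DPA and 2.81, 2.91 and 3.02 at 20 DPA. None of the 3 low molecular weight genes was called, with 0 at an unadjusted limma p under 0.05, and the groups overlapped for each. TuA3-538a, the highest of them, measured 15400, 10660 and 15520 and then 13160, 11580 and 9237, a log2 change of -0.29 with an SE of 0.24. These families hold near-identical copies, so the deposited values of single members are uncertain where reads could be split between them.

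Within the prolamin pool the make-up shifted from alpha gliadin towards low molecular weight glutenin, a comparison that no scaling of the libraries can move. Alpha gliadins held 34.7%, 36.8% and 32.9% of prolamin FPKM at 15 DPA and 28.0%, 28.2% and 27.4% at 20 DPA. Low molecular weight glutenins held 23.4%, 20.2% and 23.7% and then 28.7%, 28.2% and 26.8%. High molecular weight glutenins held 6.95%, 7.01% and 6.10% and then 5.77%, 4.55% and 5.96%. In these 3 classes the stages did not overlap, whereas gamma gliadins overlapped at 31.4% to 33.0% and 32.9% to 34.8%. A two-sided exact permutation test gave p = 0.1 for each of the 3 classes and for the TuGlu-1Ax to TuGlu-1Ay ratio, which is the smallest p that 3 against 3 libraries allow, and 0.125 after adjustment over the 20 ratios and shares compared. The stages were thus separated without overlap in these measures, but the test could not reach the 0.05 threshold. For high molecular weight glutenins the separation was narrow, with 6.10% and 5.96% in the nearest libraries.

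**Figure D3:**
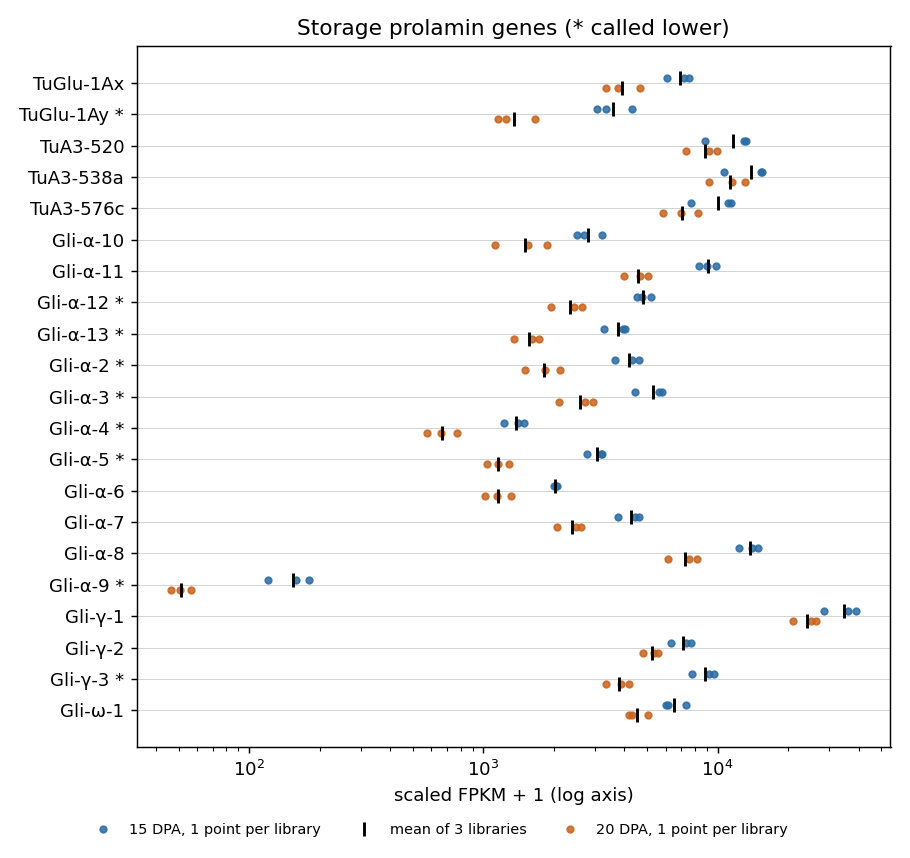
Each of the 21 storage prolamin genes has a row with its scaled FPKM + 1 (log axis) in the 3 libraries at 15 DPA (blue) and at 20 DPA (orange), and black ticks mark the means. An asterisk marks the 9 genes called lower, 7 of them alpha gliadins, and the LMW glutenin genes named TuA3 overlap between stages.

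The starch genes had a more negative median change than the prolamin genes. Of 28 genes, 26 were tested, 15 were called lower and 0 higher, where 11.1% of all tested genes were lower and 4.08% higher, with a median log2 change of -1.86 beside -0.31 over all genes. Of the 26, 20 passed the filter at 15 DPA but not in all 3 libraries at 20 DPA, and these held 12 of the 15 calls. For a fall, 17 had an unadjusted limma p under 0.05, beside 2479 of the 10503 tested genes. For a rise 1 did, beside 770. The count was 25 as deposited and 18 when scaled to FPKM outside the dominant genes. Of the 10503 tested genes, 9089 and 3023 were then lower. Summed scaled FPKM over the 28 genes was 756, 691 and 671 at 15 DPA and 145, 128 and 114 at 20 DPA, a sum 5.47 times as high at 15 DPA. Prolamin FPKM per starch gene FPKM, which no scaling alters, was 225, 195 and 251 at 15 DPA and 753, 769 and 736 at 20 DPA, with no overlap (two-sided exact permutation p = 0.1, the smallest possible). Without 15 DPA library 1, 2 or 3, 5, 5 and 6 genes were called when the filter was reapplied to the 5 remaining libraries, and 11 each time when the tested genes were kept.

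All 4 genes that handle sucrose and UDP-glucose were called lower. TuSuSy2, a sucrose synthase that cleaves sucrose to UDP-glucose and fructose, measured 35.3, 24.8 and 16.0 scaled FPKM at 15 DPA and 1.78, 0.803 and 2.24 at 20 DPA, a log2 change of -3.31 (limma, SE 0.37, adjusted p = 0.00211). TuUGPase, the UDP-glucose pyrophosphorylase, measured 37.5, 36.9 and 34.9 and then 1.38, 7.64 and 9.16, with a log2 change of -2.66 (limma, SE 0.54, adjusted p = 0.0141). TuSuSy1 (log2 change -2.42) and TuSPS1, a sucrose phosphate synthase (-2.00), had limma adjusted p of 0.019 and 0.0202. With the same genes tested, the calls of TuUGPase, TuSuSy1 and TuSPS1 ended when any 1 of the 15 DPA libraries was left out. Their limma adjusted p was then 0.0593 to 0.0628, 0.0716 to 0.0793 and 0.0671 to 0.0871. With the filter reapplied, TuUGPase stayed called each time and TuSuSy1 only without 15 DPA library 3, while TuSPS1 was not tested.

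Of the 4 genes for ADP-glucose pyrophosphorylase, an enzyme built of large and small subunits, both cytosolic ones were called lower. The cytosolic large subunit TuAGPL-cyto measured 37.6, 35.2 and 36.4 at 15 DPA and 7.52, 7.10 and 8.30 at 20 DPA, a log2 change of -2.12 (limma, SE 0.16, adjusted p = 0.00047). The cytosolic small subunit TuAGPS-cyto measured 52.6, 52.4 and 42.8 and then 16.3, 14.4 and 9.08, a log2 change of -1.85 (limma, SE 0.24, adjusted p = 0.00344). Both calls held in all 22 alternatives run. The plastidial subunits TuAGPL-plas2 and TuAGPS-plas2 had means of 0.897 and 2.03 at 15 DPA and were not called, with log2 changes of -0.58 and -0.32. Whether the forms differ in their change was not tested.

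TuGBSSI, the granule-bound synthase that makes amylose, was at or near 0 in the 20 DPA libraries. It measured 170, 141 and 117 scaled FPKM at 15 DPA and was listed at 0, 1.65 and 0 at 20 DPA, a log2 change of -6.68 (limma, SE 0.41, adjusted p = 0.000265). Of starch gene FPKM it held 22.5%, 20.4% and 17.4% at 15 DPA and 0%, 1.29% and 0% at 20 DPA. In the 25 DPA libraries it was present again, at 33.75, 73.48 and 2.17 FPKM as deposited. There it held 22.75%, 7.43% and 0.635% of starch gene FPKM. Among the soluble synthases that extend amylopectin, TuSSIIIa went from 3.29, 3.33 and 2.78 to 0 in all 3 libraries (limma adjusted p = 0.0023) and TuSSIIa from 4.48, 2.91 and 1.57 to 0 in all 3 (limma adjusted p = 0.00746). Both lost the size limit at a pseudocount of 5. TuSSI measured 6.54, 6.48 and 5.07 and then 3.76, 4.13 and 1.77, without overlap, but was not called (log2 change -0.78, SE 0.32, limma adjusted p = 0.149). TuSSIIb, TuSSIV and TuGBSSII, the granule-bound form known from non-storage tissues, were not called at means of 0.397 to 2.94, and TuSSIIIb was not tested.

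The branching enzymes introduce the branch points of amylopectin, and all 3 tested members fell. TuSBEI, the most abundant starch gene at both stages, measured 298, 284 and 305 at 15 DPA and 63.9, 50.1 and 45.5 at 20 DPA, a log2 change of -2.47 (limma, SE 0.16, adjusted p = 0.000282). It held 39.4%, 41.2% and 45.5% of starch gene FPKM and then 44.0%, 39.0% and 40.0%, so its share overlapped between stages (two-sided exact permutation p = 0.6) while the level fell. TuSBEIIb went from 7.14, 6.42 and 5.45 to 0, 0.391 and 0, and TuSBEIIa from 13.9, 12.6 and 12.3 to 4.43, 1.59 and 2.98, with log2 changes of -2.71 and -1.86. TuSBEIII was near 0 at both stages and was not tested.

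The debranching, phosphorylase and transport genes moved unequally, and 3 of 8 were called lower. TuPUL, the pullulanase that hydrolyses branch points, measured 11.3, 10.6 and 10.4 at 15 DPA and 1.51, 1.72 and 0.470 at 20 DPA, a log2 change of -2.45 (limma, SE 0.31, adjusted p = 0.00313). TuPHO1, the plastidial starch phosphorylase, went from 3.93, 3.11 and 3.32 to 0, 0 and 0.939, a log2 change of -1.83 whose call ended at a pseudocount of 5. TuISA2, an isoamylase subunit, had a log2 change of -1.62 with a limma adjusted p of 0.0247. With the same genes tested, this p became 0.0773 to 0.0958 when any 1 of the 15 DPA libraries was left out. TuDPE1, the plastidial disproportionating enzyme that transfers short glucans, was the only starch gene above its 15 DPA level without overlap, at 4.80, 3.59 and 5.36 and then 10.2, 8.19 and 8.09. Its log2 change of 0.82 (SE 0.24) had a limma adjusted p of 0.0522 and was not called, and as deposited the change was -1.60. The glucose 6-phosphate translocator gene TuGPT measured 8.71, 12.7 and 15.3 and then 8.53, 7.99 and 5.48 and was not called. TuISA1, an isoamylase whose log2 change of -1.98 had a limma adjusted p of 0.0714, and TuISA3 and TuPHO2 were not called.

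By role, the summed scaled FPKM at 15 DPA was 17.0 times that at 20 DPA for the synthases, 6.94 times for the sucrose and UDP-glucose genes, 5.59 times for the branching enzymes, 3.89 times for ADP-glucose pyrophosphorylase and 1.81 times for the debranching, phosphorylase and transport group. TuGBSSI carried the ratio of the synthases, since the other 7 of them summed to 18.2, 16.9 and 15.0 at 15 DPA and 7.66, 12.7 and 6.13 at 20 DPA, 1.89 times as high at 15 DPA. Within starch gene FPKM the synthases held 24.9%, 22.8% and 19.6% at 15 DPA and 5.28%, 11.2% and 5.39% at 20 DPA. Without TuGBSSI the share went the other way, with 2.40%, 2.44% and 2.23% and then 5.28%, 9.87% and 5.39% for the other 7 genes. The debranching, phosphorylase and transport group held 6.26%, 6.59% and 7.94% and then 19.7%, 18.7% and 24.9%. Neither the range of all synthases nor that of this group overlapped between stages (two-sided exact permutation p = 0.1 each, the smallest possible, 0.125 adjusted over the 20 ratios and shares).

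**Figure D4:**
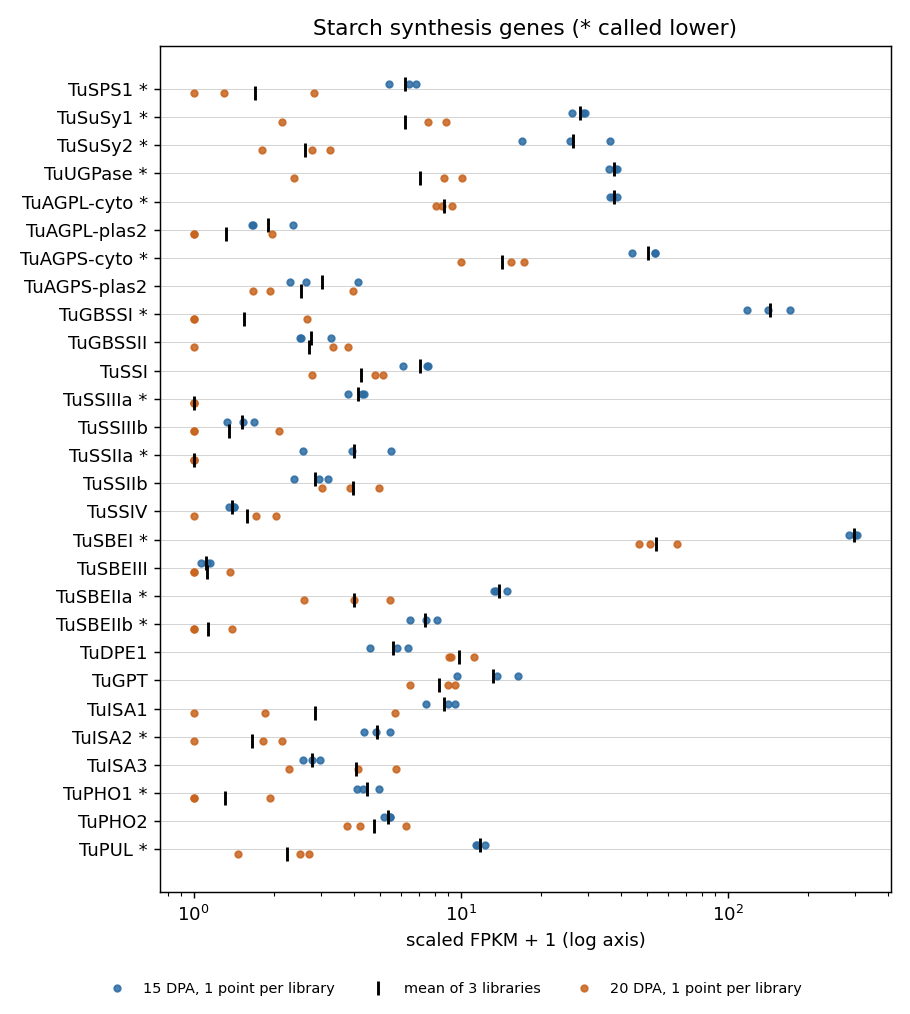
Each of the 28 starch synthesis genes, ordered by role from sucrose cleavage to debranching, has its scaled FPKM + 1 (log axis) in the 3 libraries at 15 DPA (blue) and at 20 DPA (orange), with black ticks for the means. An asterisk marks the 15 genes called lower, and TuGBSSI moves from 117 to 170 scaled FPKM down to 0 to 1.65.

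Among the 12 individually named genes, 3 were called lower and 0 higher of 10 tested, beside 11.1% and 4.08% of all tested genes. Of the 10, 7 passed the filter at 15 DPA but not in all 3 libraries at 20 DPA. These held 2 of the 3 lower genes, TuWPBF and Tuglup3. TuWPBF, a Dof factor whose wheat and barley homologues bind the prolamin box of storage protein promoters, measured 16.3, 13.8 and 11.8 at 15 DPA and 3.23, 0 and 0 at 20 DPA. Its log2 change was -3.20 (limma, SE 0.59, adjusted p = 0.00995), which became 0.0507 with a pseudocount of 0.1. TuPdi, a protein disulphide isomerase gene of the kind that assists storage protein folding, measured 73.0, 83.3 and 61.3 and then 30.7, 21.0 and 21.8, a log2 change of -1.54 (limma, SE 0.21, adjusted p = 0.00362).

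Tuglup3, whose rice counterpart is a vacuolar processing enzyme that matures glutelins, measured 17.2, 15.8 and 10.5 at 15 DPA and 5.41, 2.22 and 0 at 20 DPA, a log2 change of -2.47 (limma, SE 0.66, adjusted p = 0.0404). The call ended without any 1 of the 15 DPA libraries or without 20 DPA library 2, at limma adjusted p of 0.0702 to 0.148. TuGAMYB, a MYB regulator of storage and gibberellin-responsive genes, measured 12.7, 10.1 and 11.7 and then 5.81, 6.25 and 7.85. These groups did not overlap, but the log2 change of -0.71 had a limma adjusted p of 0.0581 and was not called. TuSPA, the bZIP storage protein activator, and TuOHP1, a further bZIP gene, were not called at 15 DPA means of 2.11 and 3.23. TuQM, Tuglup4 (Rab5a), Tuglup6 and TuGCN5, named for a histone acetyltransferase, were not called either, and TuFUS3 and Tuglup2 were too low to be tested.

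Of the 1099 genes in transcription factor families, 366 were tested, 25 were called lower (6.83% of those tested, beside 11.1% of all genes) and 7 higher (1.91%, beside 4.08%). Of the 25 lower genes, 19 passed the filter at 15 DPA but not in all 3 libraries at 20 DPA. The median log2 change of the 366 was -0.33. As deposited, 328 were lower and 1 higher, where 86.5% of all tested genes were lower and 1.38% higher. The counts depended on the libraries. Without 15 DPA library 1, 2 or 3, with the same genes tested, 16, 16 and 20 were lower and 2, 3 and 3 higher, and without 20 DPA library 1, 2 or 3, 47, 46 and 53 were lower and 11, 8 and 11 higher. Of the 22 families with at least 5 tested members, 12 had no called gene, among them WRKY with 16 tested genes, bHLH with 19, MYB with 17, C3H with 21 and HSF with 10.

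**Figure D5:**
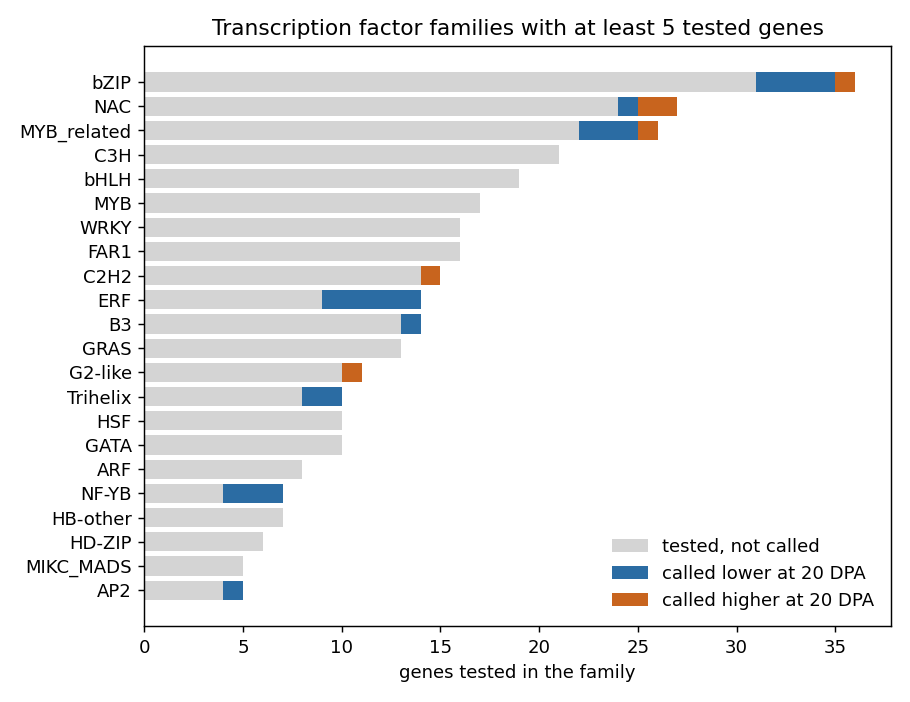
Horizontal bars count the tested genes of the 22 transcription factor families with at least 5 tested members, split into genes not called (grey), called lower (blue) and called higher (orange) at 20 DPA. The ERF bar holds 5 lower genes of 14, where 11.1% of all tested genes were lower, and 12 families hold no called gene.

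The ERF family, named for ethylene response factors, had 5 of 14 tested members lower (35.7%, beside 11.1% of all tested genes). The highest of these, TRIUR3_20682, measured 46.6, 42.7 and 39.5 scaled FPKM at 15 DPA and 9.81, 7.88 and 9.37 at 20 DPA, a log2 change of -2.13 (limma, SE 0.17, adjusted p = 0.000536). TRIUR3_34295 and TRIUR3_08978, at means of 15.6 and 19.9 at 15 DPA, had log2 changes of -1.91 and -1.60. TRIUR3_18522 (-1.26) missed the threshold without 15 DPA library 1 or 2, with limma adjusted p of 0.0511 and 0.0527. The remaining lower ERF gene was listed at 0 in every 20 DPA library. That gene and TRIUR3_34295 reached 1 FPKM in all 3 libraries at 15 DPA only.

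NF-Y factors bind CCAAT boxes as trimers of A, B and C subunits. Of 30 genes for the 3 subunits, 14 were tested. Of these, 6 were called lower (42.9%, beside 11.1% of all tested genes) and 1 higher (7.14%, beside 4.08%). The median log2 change of the 14 was -1.41, beside -0.31 over all tested genes. Of the 6 lower genes, 5 passed the filter at 15 DPA but not in all 3 libraries at 20 DPA, so the count was drawn largely from genes selected by their 15 DPA level. The NF-YC gene TRIUR3_29815 had the highest 15 DPA mean of the called factors, at 122, 103 and 115 at 15 DPA and 46.5, 34.4 and 36.2 at 20 DPA, a log2 change of -1.53 (limma, SE 0.17, adjusted p = 0.00195). In the fit of all 15 endosperm libraries its limma adjusted p was 0.121. All 3 NF-YB genes that were called were listed at 0 in every 20 DPA library. The NF-YC gene called higher, TRIUR3_34926, moved from 2.18, 0.931 and 1.28 to 4.00, 4.58 and 5.09, and was not called as deposited, where its log2 change was -0.79.

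In the NAC family, plant-specific factors that include known regulators of wheat and maize endosperm filling, 1 of 27 tested genes was lower and 2 were higher. These made 3.7% and 7.41% of the family, beside 11.1% and 4.08% of all tested genes. TRIUR3_14109 measured 7.71, 8.90 and 8.17 at 15 DPA and 55.1, 38.0 and 29.6 at 20 DPA, a log2 change of 2.14 (limma, SE 0.25, adjusted p = 0.00253). The direction depends on the scaling, since the log2 change was -0.54 as deposited and -1.34 scaled to total FPKM. TRIUR3_11787 fell from 15.3, 11.7 and 11.8 to 5.27, 4.34 and 6.00 (log2 change -1.17, limma adjusted p = 0.0109), a call that ended at a pseudocount of 5 and, at a limma adjusted p of up to 0.0995, without any 1 of the 15 DPA libraries when the filter was reapplied. The most abundant NAC genes were not called. TRIUR3_00447 measured 152, 146 and 173 and then 161, 99.7 and 96.7, and TRIUR3_01582 measured 104, 104 and 124 and then 92.3, 64.4 and 50.8.

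The MYB_related family had 3 lower (11.5%) and 1 higher (3.85%) of 26 tested genes. The bZIP family had 4 lower (11.1%) and 1 higher (2.78%) of 36. Both families were near the shares of all tested genes, 11.1% lower and 4.08% higher. TRIUR3_09932 (MYB_related) went from 11.5, 9.56 and 14.3 to 0, 2.35 and 3.29, a log2 change of -2.38 with a limma adjusted p of 0.0252 that became 0.0728 to 0.104 when any 1 of the 15 DPA libraries was left out. TRIUR3_02784 (bZIP) went from 15.0, 15.8 and 11.5 to 6.05, 4.15 and 6.71, and its limma adjusted p of 0.0149 became 0.0678 and 0.0742 without 15 DPA libraries 1 and 2. TRIUR3_30912 (MYB_related), named after its values were seen, was listed at 0 in all 3 libraries at 15 DPA and measured 9.00, 3.15 and 4.44 at 20 DPA (limma adjusted p = 0.00509). TRIUR3_30912 reached 1 FPKM in all 3 libraries at 20 DPA only, so its 20 DPA level brought it into the test. Of the 138 genes tested by that route, 128 were called higher. TRIUR3_30912 was the only transcription factor gene also called higher on FPKM as deposited.

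Of the 428 higher genes 421 had no annotation (98.4%) and of the 1164 lower ones 1112 (95.5%), close to the 96.0% of all tested genes. TRIUR3_14575 rose from 11.9, 9.15 and 45.8 to 9514, 4233 and 3939 scaled FPKM, a log2 change of 8.21 (limma, SE 0.63, adjusted p = 0.0005), and TRIUR3_04777 from 0, 2.09 and 21.6 to 2076, 729 and 648. TRIUR3_17475 went from 163, 118 and 107 to 0 in every 20 DPA library, and TRIUR3_03467 from 134, 101 and 103 to 0 in every one (limma adjusted p of 5.1e-05 for each). Of the 428 higher genes, 238 also had a higher mean FPKM as deposited, 41 carried values identical to those of another gene, and 18 were the dominant genes. Of the 1164 lower genes, 554 were listed at 0 in all 3 libraries at 20 DPA. Their spread at 20 DPA is then 0, so their limma p does not measure the variation between replicates at 20 DPA. Of the higher genes, 304 (71.0%) had a mean in flag leaf above their 15 DPA mean on FPKM as deposited, beside 66.8% of all tested genes.

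The tissue was checked with the annotated endosperm genes and with leaf-abundant genes. Prolamin transcripts were high in all 6 libraries, whereas TuGBSSI and TuWPBF, 2 further endosperm markers, were each listed at 0 in 2 of the 3 libraries at 20 DPA. For aleurone, embryo, seed coat and pericarp the table annotates no marker, so their RNA was not tested. Among 72 genes with at least 1000 FPKM in leaf and at least 10 times their level in endosperm at 10 DPA, the median scaled FPKM was 9.15, 7.68 and 10.2 at 15 DPA and 1.61, 1.98 and 0 at 20 DPA. Their summed scaled FPKM was 1420, 1268 and 1628 and then 2429, 2072 and 2128, and 4 to 7 of them were listed at 0 at 15 DPA against 29 to 37 at 20 DPA. Of the 63 tested, 13 (20.6%) were called higher and 34 (54.0%) lower, beside 4.08% and 11.1% of all tested genes. The part of leaf-abundant transcripts in the calls above was not tested.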

How the data were processed

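The authors deposited FPKM values per gene for 18 libraries, each group with 3. Bowtie 0.12.2 is named in the submitters' processing notes. No build, annotation or counting program is named in the sources used here, and 0 identifiers matched the reference table of gene names. Column headings name the group and a number, not the sample, so library numbers are column numbers. Depth was estimated only relative to 15 DPA library 1 and within a narrow range, so no counting interval was computed. Libraries were rescaled by median ratios as described, and log2(scaled FPKM + 1) was fitted with limma 3.58.1 in R 4.3.3 with a variance trend, tested on simulated data. This pseudocount understates the change of low genes. Shares and ratios were compared by two-sided exact permutation tests, with the Benjamini-Hochberg adjustment made in scipy. The members and lists were chosen with earlier results of these data known. All annotated storage, starch and individually named genes are accounted for. Other named genes were the called, non-overlapping transcription factors with a mean of at least 10 scaled FPKM in the higher group (10 largest changes in each direction), the largest 2 rises and 2 falls among unannotated genes on the same conditions, and 2 dominant genes. Gli-α-5, Gli-α-9, TRIUR3_34926, TRIUR3_30912, TRIUR3_00136, TRIUR3_00018 and the abundant NAC genes were named after their values were seen. Scaling, pseudocount, filter, libraries and variance trend were varied.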

Additional observations from a re-analysis of the deposited data

How the results depend on the processing

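The main counts were 428 higher and 1164 lower genes, 9 lower prolamin genes, 15 lower starch genes, and 25 lower and 7 higher transcription factor genes. On FPKM as deposited these became 145, 9089, 21, 25, 328 and 1. Scaled to total FPKM they were 101, 9724, 21, 26, 353 and 1. Scaled to FPKM outside the dominant genes, 3023 genes, 21 prolamin genes and 97 transcription factor genes were lower, and 4 transcription factor genes higher. With a pseudocount of 5, 284 genes were higher and 432 lower, and 9 transcription factor genes were lower and 2 higher, and with 0.1, 41 transcription factor genes were lower. Without a filter 651 genes were lower. With the filter at 5 FPKM, 236 genes and 1 transcription factor gene were higher. In 1 fit of all 15 endosperm libraries the counts were 736, 2203, 0, 16, 77 and 22. The cause of these shifts was not tested. Leaving out 1 library gave 264 to 473 higher and 204 to 1854 lower genes, 6 to 13 prolamin, 5 to 16 starch, 4 to 53 lower and 2 to 10 higher transcription factor genes. Without a 15 DPA library the reapplied filter tests fewer genes and rises outnumbered falls (274 to 204, 264 to 214 and 303 to 243). With the tested genes kept, an alternative added after seeing the data, 277 to 519 genes were higher and 748 to 1837 lower, the latter 748, 751 and 765 without 15 DPA libraries 1, 2 and 3 and 1837 without 20 DPA library 2. The lower transcription factor genes then numbered 16 and 16 without 15 DPA libraries 1 and 2 and 47, 46 and 53 without 20 DPA libraries 1, 2 and 3, and the higher ones 2, 3 and 3 without a 15 DPA library and 11 without 20 DPA library 1 or 3. The change of TRIUR3_14109 reversed to -0.54 as deposited and -1.34 scaled to total FPKM, and that of TRIUR3_00135 to -0.12 scaled to total FPKM. Median ratios over the 325 genes of at least 10 FPKM and a fit with no variance trend kept each of these counts within 1.5 times. Dominant genes taken from 0.5% were the same 18. No paired analysis was possible because the column headings do not tie columns to field replications. Transcripts under the higher detection limit at 20 DPA cannot be compared between the stages.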
